A study of Mus musculus with 7 samples.

Results

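Fc receptors, the phagocyte receptor TREM2 and the signalling parts they share are described here by 9 genes: Tyrobp, Trem2, Fcer1g, Fcgr1, Fcgr2b, Fcgr3, Fcgr4, Cd33 and Syk. They were found by symbol in a table of 23358 gene entries, and all 9 were present and had been tested by the authors. The table compared brain cells of C57Bl6 mouse embryos at stage E14.5, labelled endothelial, from a control group of 3 libraries and a Tgfbr2-deficient group of 4 libraries, in which this receptor of transforming growth factor β was to be lost. In both groups the cells were sorted on TdTomato, the red protein that the Ai14 reporter allele makes after recombination, and 2000 to 5000 cells went into a library. The sources used here do not give the Cre driver, the recombined part of Tgfbr2 or the alleles of the controls.

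Fc receptors bind the constant part of antibodies and TREM2 binds lipids and lipoproteins, and both are used by macrophages and microglia, the macrophages of the brain. Most have no signalling tail of their own: the activating Fc receptors borrow the FcR γ chain, which Fcer1g encodes, and TREM2 borrows TYROBP, also called DAP12. Both adaptors carry an immunoreceptor tyrosine-based activation motif (ITAM), which SRC-family kinases phosphorylate and the kinase SYK then docks on. FcγRIIB instead carries an inhibitory motif (ITIM) that recruits phosphatases, as does human CD33, from which mouse CD33 differs in its tail. In the mouse brain these genes are known chiefly as genes of microglia and other macrophages.

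Of the 9 genes, 8 fell in the Tgfbr2-deficient group, by 1.87-fold (Syk) to 2.40-fold (Fcer1g), and Fcgr4 did not pass the test. A gene was called lower or higher at a q-value under 0.05 in the authors' deposited table, among genes that reached 1 FPKM in either group (a level of fragments scaled to transcript length and library size). All 9 genes passed that filter. Over the 13356 genes tested in this way, 14.7% were lower and 23.9% were higher. The share called lower was greater among abundant genes: it was 41.0% in the highest 10% by mean FPKM, where 4 of the 9 lie, 33.8% and 24.6% in the next bands of 10%, which hold 2 each, and 11.1% in the band that holds Fcgr4. The median log2 fold on FPKM + 1 was −1.06 for the 9 genes and −0.08 for all tested genes. With a fold of 2 also required, 7 of the 9 were lower, all of those called except Syk, against 2.76% of all tested genes lower and 20.1% higher. The count was 8 under each other rule tried. Those rules called 14.0% of genes lower and 24.8% higher with no FPKM filter, 19.5% and 17.2% at a minimum of 5 FPKM, and 7.68% and 20.3% at a q-value under 0.01. With q-values recomputed over the filtered genes they called 14.7% and 23.9%, and without rows of several symbols 14.7% and 24.0%. The table gives 1 value per gene and group, so the spread between libraries and their depth are unknown, no value has an SD, and groups cannot be said to overlap or not. FPKM is relative to the other RNA in a group, so fewer cells of a type and less of the RNA per cell cannot be told apart. Whether the libraries were made from different embryos is not stated in the labels, so a q-value may reflect technical spread alone.

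**Figure D1:**
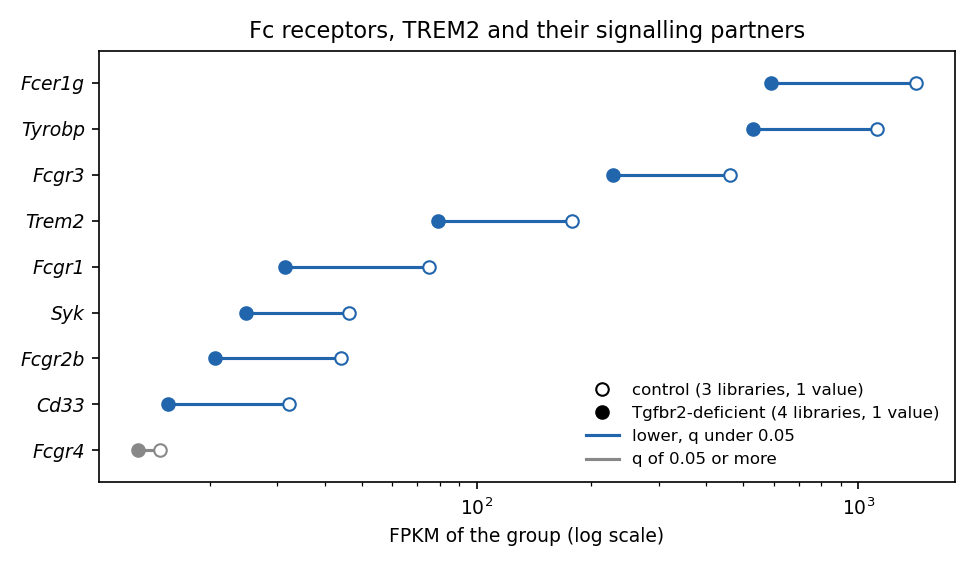
FPKM of the 9 genes in the control group (open points) and the Tgfbr2-deficient group (filled points), each 1 value that the authors made from all libraries of the group, on a log axis with no error bars. In 8 genes the filled point lies to the left by 1.87-fold or more, and the points of Fcgr4, at 14.8 and 13.005 FPKM, nearly meet.

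Macrophage markers stood above endothelial markers in both groups, against the endothelial label of the cells. Of 12 pan-endothelial markers, among them the VEGF receptor Kdr and the tight-junction claudin Cldn5, the median level was 0.736 FPKM in controls and 12.3 FPKM in the deficient group, and all 12 rose. Of 22 microglia and macrophage markers the median level was 279 FPKM and 129 FPKM, and 18 fell, 1 rose and 3 did not pass. Among all tested genes 14.7% were lower and 23.9% higher. Tgfbr2, the gene named in the labels, was at 91.1 FPKM in controls and 65.4 FPKM in the deficient group and did not pass (q = 0.0953 in the authors' deposited table).

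The adaptors were the most abundant of the 9 genes. Fcer1g, which encodes the FcR γ chain, stood at 1414 FPKM in controls and 589 FPKM in the deficient group, ranks 22 and 54 of the tested genes. It had the largest fall of the 9, with a log2 fold of −1.26 in the authors' deposited table. Tyrobp, which encodes the adaptor of TREM2, stood at 1121 and 530 FPKM, ranks 28 and 61, with a log2 fold of −1.08. Both had q = 0.00029, the smallest value in the authors' deposited table, as did every other of the 9 genes that fell, so the 8 cannot be ranked by their p-value. The level of Tyrobp was 0.793 times that of Fcer1g in the control group and 0.900 times in the Tgfbr2-deficient group. In the mm10 build Fcer1g lies on the minus strand of chromosome 1 from 171229572 to 171234349 and Tyrobp on the plus strand of chromosome 7 from 30413788 to 30417579. The span counted for each overlaps no other gene annotated by GENCODE M21.

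Trem2 stood at 178 FPKM in controls and 79.0 FPKM in the deficient group, a fall of 55.6% with a log2 fold of −1.17 in the authors' deposited table. It is the receptor through which microglia sense lipids and cell debris, and lies on chromosome 17 from 48346401 to 48352276 on the plus strand. Its level was 0.159 times that of its adaptor Tyrobp in the control group and 0.149 times in the Tgfbr2-deficient group, a change of 0.939 times. These proportions have no error, since each rests on 1 value per group.

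Among the activating receptors for IgG, Fcgr3 and Fcgr1 fell and Fcgr4 did not pass. Fcgr3, which encodes FcγRIII, a receptor for immune complexes, stood at 461 FPKM in controls and 228 FPKM in the deficient group, with a log2 fold of −1.02 in the authors' deposited table. Fcgr1, which encodes FcγRI, the receptor that binds single IgG molecules with high affinity, stood at 75.1 and 31.5 FPKM, with a log2 fold of −1.26. The fall of Fcgr1 was close in size to that of Fcer1g, the chain it signals through. Fcgr4, which encodes FcγRIV, a further activating receptor that uses the γ chain, stood at 14.8 and 13.005 FPKM. Its log2 fold was −0.19 with p = 0.468 and q = 0.593 in the authors' deposited table. Fcgr4 was the least abundant of the 9 genes in both groups, and whether its fold differs from those of the other receptors was not tested.

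Of the summed level of these 3 receptors, Fcgr3 made up 83.7% in each group, Fcgr1 13.6% in the control and 11.6% in the Tgfbr2-deficient group, and Fcgr4 2.69% and 4.78%. The sum was 551 FPKM in controls and 272 FPKM in the deficient group, or 0.390 and 0.462 times the level of Fcer1g. Its proportion to the adaptor was thus 1.18 times as high in the Tgfbr2-deficient group, a difference with no error and no test. The γ chain also serves receptors outside this sum.

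Promoters are shown for the receptor genes that held the motif searched, of which 3 fell and Fcgr4 did not pass. RefSeq's promoter table for GRCm38.p6, the assembly of mm10, held 8 of the 9 genes, all but Tyrobp. It lists 2 starts each for Fcgr3 and Syk, of which the start in the deposited table was used. The 150 bases before the start used in the deposited table were searched on both strands for GAGGAA, the core of the PU box bound by PU.1, the transcription factor that specifies macrophages. The core was present in 4 of the 8, Trem2, Fcgr1, Fcgr3 and Fcgr4, against 14.47% of 32817 promoters of the same length. The window and motif were chosen after the sequences had been seen, so these 2 shares cannot serve as a test of enrichment. Each match lay on the strand opposite to the gene, so it reads ttcctc on the gene's strand, and is set in capitals below. The sequences read 5′ to 3′ along the gene's strand and end at the base before the start.
Trem2, chr17:48346251-48346400, plus strand: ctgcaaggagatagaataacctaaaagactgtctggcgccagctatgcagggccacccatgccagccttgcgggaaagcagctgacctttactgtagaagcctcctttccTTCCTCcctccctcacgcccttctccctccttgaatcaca
Fcgr1, chr3:96293970-96294119, minus strand: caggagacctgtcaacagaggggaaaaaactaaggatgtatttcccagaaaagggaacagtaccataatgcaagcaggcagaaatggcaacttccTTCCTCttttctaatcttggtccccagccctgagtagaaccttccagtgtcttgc
Fcgr3, chr1:171059404-171059553, minus strand: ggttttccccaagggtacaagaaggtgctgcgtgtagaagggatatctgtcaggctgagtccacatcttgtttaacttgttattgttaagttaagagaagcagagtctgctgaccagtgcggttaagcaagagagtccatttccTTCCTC
Fcgr4, chr1:171018776-171018925, plus strand: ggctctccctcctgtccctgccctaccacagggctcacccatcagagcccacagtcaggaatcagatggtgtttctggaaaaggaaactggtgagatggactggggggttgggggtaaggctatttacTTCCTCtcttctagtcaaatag

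Counted back from the start, the first base of the match lay at −40 in Trem2, −55 in Fcgr1, −6 in Fcgr3 and −22 in Fcgr4. The 4 bases before the match were ttcc in Trem2, Fcgr1 and Fcgr3 and ttac in Fcgr4. Fcgr4 held the core and did not pass, and these 3 genes held it and fell. Fcer1g, Fcgr2b, Cd33 and Syk had no match in this window and fell. TATAAA, the TATA box, was in none of the 8 windows and in 7.58% of all promoters. The window of Syk had 72.7% G and C, above the upper quartile of 64.0% over all promoters, while those of the other 7 had 42.7% to 58.0%. The gene for PU.1, listed as Sfpi1 and counted among the microglia and macrophage markers, fell from 491 to 197 FPKM. A match of letters is a description, binding was not measured, and whether the motif bears on any fall was not tested.

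Fcgr2b and Cd33 fell as well. Fcgr2b, which encodes FcγRIIB, the only inhibitory receptor for IgG among the classical Fc receptors, stood at 44.1 FPKM in controls and 20.6 FPKM in the deficient group, with a log2 fold of −1.10 in the authors' deposited table. Cd33, which encodes a sialic-acid-binding lectin of myeloid cells, stood at 32.3 and 15.5 FPKM, with a log2 fold of −1.05. The sum of Fcgr1, Fcgr3 and Fcgr4 was 12.5 times the level of Fcgr2b in the control group and 13.2 times in the Tgfbr2-deficient group. Trem2 stood at 5.52 times the level of Cd33 in the control group and 5.09 times in the Tgfbr2-deficient group. Between the groups the first proportion changed by 1.06 times and the second by 0.922 times, with no error on either value.

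Syk, the kinase that both adaptors recruit, had the smallest fall of the 8 genes that passed. It stood at 46.5 FPKM in controls and 24.9 FPKM in the deficient group, 46.5% lower, with a log2 fold of −0.90 in the authors' deposited table. The locus covers chromosome 13 from 52583437 to 52648792 on the plus strand.

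In order of level the genes were Fcer1g, Tyrobp, Fcgr3, Trem2, Fcgr1, Syk, Fcgr2b, Cd33 and Fcgr4, and the order was the same in both groups. FPKM is scaled to length, so levels of different genes may be set side by side, but with no spread it cannot be said which neighbours in this order differ. The control levels ran from 14.8 to 1414 FPKM, while the log2 folds of the 8 genes that fell, on FPKM + 1, lay between −1.26 and −0.88.

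Fcgr2b, Fcgr4, Fcgr3 and Fcer1g lie within 274 kb of chromosome 1, from 170960559 to 171234349. Of 11 entries of the table in this span 9 passed the filter, and 4 fell, 2 rose and 3 did not pass. Besides the 3 Fc receptor genes that fell, Sdhc, a subunit of mitochondrial complex II, fell from 170 to 120 FPKM with q = 0.0497. Pcp4l1 rose from 1.17 to 4.69 FPKM with q = 0.00029 in the authors' deposited table. Neighbours of the Fc receptor genes thus moved in either direction. These genes were taken by position after the values of the 9 were known.

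Fcgr2b and Fcgr3 have closely related sequences, so reads can be shared between them. Of the 50-base stretches of the protein-coding Fcgr3 transcripts in GENCODE M21, the length of the reads, 10.2% were identical to a stretch of an Fcgr2b transcript, as were 4.48% of those of Fcgr2b to Fcgr3. Fcgr2b also shares sequence with Gm38204, an antisense transcript that overlaps it, and the libraries do not mark strand. With both strands compared, 10.7% of its stretches were found in some other gene, most often Fcgr3, Gm38204 and Cplx2. Fcgr3 stood at 10.5 times the level of Fcgr2b in the control and 11.0 times in the deficient group. How the authors' tools divided shared reads is unknown, and the values of both genes are uncertain to that extent. The annotated small nuclear RNA gene Gm26110 lies within the span of Fcgr4. Of the stretches of Cd33, 0.587% were shared with another gene, and for Tyrobp, Trem2, Fcer1g, Fcgr1, Fcgr4 and Syk 0 were.

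**Figure D2:**
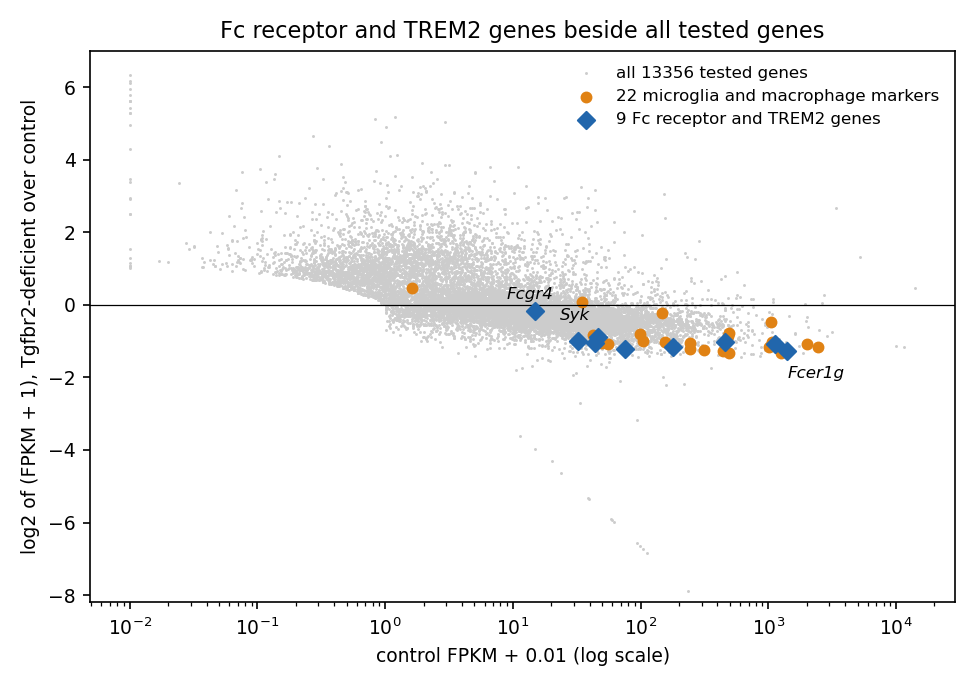
Log2 fold on FPKM + 1 (vertical axis) against control FPKM, shifted by 0.01 so that 0 can be drawn (log axis), for all 13356 tested genes (grey), 22 microglia and macrophage markers (orange) and the 9 Fc receptor and TREM2 genes (blue). Of the 9, 8 lie between −1.26 and −0.88 among the macrophage markers, and Fcgr4 lies at −0.18.

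The 8 genes that fell had folds close to the median of the macrophage markers. The 22 markers, which include none of the 9, summed to 12246 FPKM in controls and 5977 FPKM in the deficient group, none was listed at 0, and their median log2 fold was −1.04. Relative to that median, Fcer1g stood at −0.22, Fcgr1 at −0.19, Trem2 at −0.12, Tyrobp at −0.04, Fcgr2b at −0.02, Fcgr3 at 0.02, Cd33 at 0.03, Syk at 0.16 and Fcgr4 at 0.86. Fcgr4 was the only one of the 9 farther from the marker median than Fcer1g. The most abundant markers, the complement genes C1qb and C1qc, fell from 2432 to 1083 FPKM and from 2026 to 959 FPKM. The marker that rose was Sall1, a transcription factor of microglia that neural progenitors also express, at 1.60 and 2.59 FPKM. Tmem119, a microglial surface protein, stood at 35.0 and 37.2 FPKM and the lysozyme gene Lyz2 at 1054 and 753 FPKM, and neither passed. How far the fall of the 8 genes rests on the share of macrophages in the sorted cells was not tested.

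By level in the 2 groups, the genes nearest to Tyrobp were C1qa, at 1070 and 523 FPKM, and Lgmn, a lysosomal protease, at 1099 and 565 FPKM. Those nearest to Fcer1g were Cst3, an inhibitor of cysteine proteases, at 1304 and 570 FPKM, and Grn, the progranulin gene, at 1371 and 676 FPKM. Nearest to Trem2 were Dok2, an adaptor that damps tyrosine kinase signalling, at 173 and 75.6 FPKM, and C5ar1, the receptor for complement C5a, at 167 and 81.0 FPKM. For Fcgr4 they were Golga5, at 14.9 and 12.9 FPKM, and Zfp828, at 14.7 and 12.9 FPKM. The distance was that between points of log2 FPKM + 1 in both groups, and the largest among these 8 genes was 0.202, for Grn. The nearest genes were Ntpcr and Tmem8 for Fcgr1, Adap2 and Gna15 for Fcgr2b, Arpc3 and Ap2s1 for Fcgr3, Hist1h1b and Casp1 for Cd33, and Mrpl48 and St6galnac4 for Syk. With 2 values per gene this likeness is one of level and fold only.

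Among other receptors for antibodies, the most abundant also fell. Fcrls, an Fc receptor-like protein of microglia, fell from 611 to 225 FPKM, Fcgrt, the neonatal Fc receptor that recycles IgG, from 742 to 342 FPKM and Trim21, a cytosolic antibody receptor, from 12.4 to 6.59 FPKM. Of 14 genes on this list 5 passed the filter, 3 fell and 0 rose, beside 14.7% lower and 23.9% higher of all tested genes. The median log2 fold was −0.82 against −0.08 over all tested genes. The other 9 were under 1 FPKM in both groups, among them Fcer1a, the IgE-binding chain of the mast cell receptor, at 0.0245 and 0.192 FPKM. Ms4a2, the β chain of that receptor, stood at 0.0485 and 2.08 FPKM and did not pass (q = 0.0829 in the authors' deposited table).

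On a list of other TREM family members and receptors that borrow TYROBP or the γ chain, 3 fell and 5 rose of 18. These shares lay near the 14.7% lower and 23.9% higher among all tested genes. Siglech, a TYROBP-paired lectin of microglia, fell from 18.8 to 5.94 FPKM, and Clec5a, another TYROBP-paired lectin of myeloid cells, from 10.5 to 4.45 FPKM. Treml1, a receptor of platelet granules, rose from 0.315 to 13.5 FPKM and Treml4 from 1.90 to 7.27 FPKM. Of 26 genes matched from this list 18 passed the filter, with a median log2 fold of 0.23. The third that fell was Cd300lb, and the other 3 that rose were Treml2, Klrd1, which pairs with NKG2 receptors of natural killer cells, and Plxna1, a semaphorin receptor. Treml1 and Treml2 were listed as TREM family members and are not known as partners of either adaptor. The list also held Hcst, which encodes an adaptor and not a receptor. It stood at 15.3 and 8.80 FPKM and did not pass (q = 0.0899 in the authors' deposited table). Gp6, the collagen receptor of platelets that signals through the γ chain, stood at 0.0220 and 2.13 FPKM and did not pass (q = 0.254 in the authors' deposited table).

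Cells other than macrophages also use these adaptors, and more of their markers rose than fell, though some abundant ones fell with Fcer1g and Tyrobp. For comparison, 14.7% of all tested genes were lower and 23.9% higher. Of 8 mast cell and basophil markers 5 rose and 0 fell, and their summed level went from 8.10 to 381 FPKM, with Cpa3 at 2.93 and 129 FPKM and Cma1 at 1.18 and 78.3 FPKM. Of 8 platelet and megakaryocyte markers 7 rose, with the integrin gene Itga2b at 0.925 and 42.2 FPKM, and Pf4, at 1877 and 747 FPKM, fell. Of 10 tested neutrophil and monocyte markers 3 rose and 2 fell: the granule enzyme gene Mpo stood at 2.23 and 29.9 FPKM, and the monocyte receptor gene Ccr2 at 56.9 and 20.1 FPKM, and 5 did not pass. Of 9 matched markers of natural killer and T cells, 2 passed the filter, Nkg7, which rose from 0.173 to 7.36 FPKM, and Cd3g, at 0.0978 and 2.41 FPKM, which was not called (q = 0.0585 in the authors' deposited table), and 4, Ncr1, Prf1, Gzma and Cd3e, were listed at 0 in the control group. Of 6 B cell markers 3 passed the filter: Cd79b fell from 52.3 to 19.8 FPKM, Cd79a rose from 0.277 to 1.92 FPKM and 1 did not pass, with a list median of 1.08. What these cells contributed to the levels of Fcer1g, Tyrobp and Syk was not tested.

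Markers of fibroblasts, mural cells, red blood cells and neural cells mostly rose while 8 of the 9 genes fell. Over all tested genes 23.9% were higher and 14.7% lower. Of 6 fibroblast and meningeal markers all 6 rose, with the collagen genes Col1a1 at 44.1 and 404 FPKM and Col3a1 at 38.8 and 305 FPKM. Among markers of pericytes and smooth muscle, 7 of 8 tested were higher and 0 lower, with the growth factor receptor gene Pdgfrb at 2.63 and 16.8 FPKM and the smooth muscle actin gene Acta2 at 2.91 and 12.3 FPKM. Of 5 erythroid markers 4 rose, with the heme synthesis gene Alas2 at 153 and 1282 FPKM and the embryonic globin gene Hbb-bh1 at 155 and 819 FPKM, and Epor, the erythropoietin receptor, fell from 42.5 to 23.9 FPKM. All 9 markers of neurons and neural progenitors rose, with Tubb3 at 66.8 and 126 FPKM and Stmn2 at 17.8 and 34.2 FPKM. The part of these other cells in the lower level of the 8 genes was not tested.

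**Figure D3:**
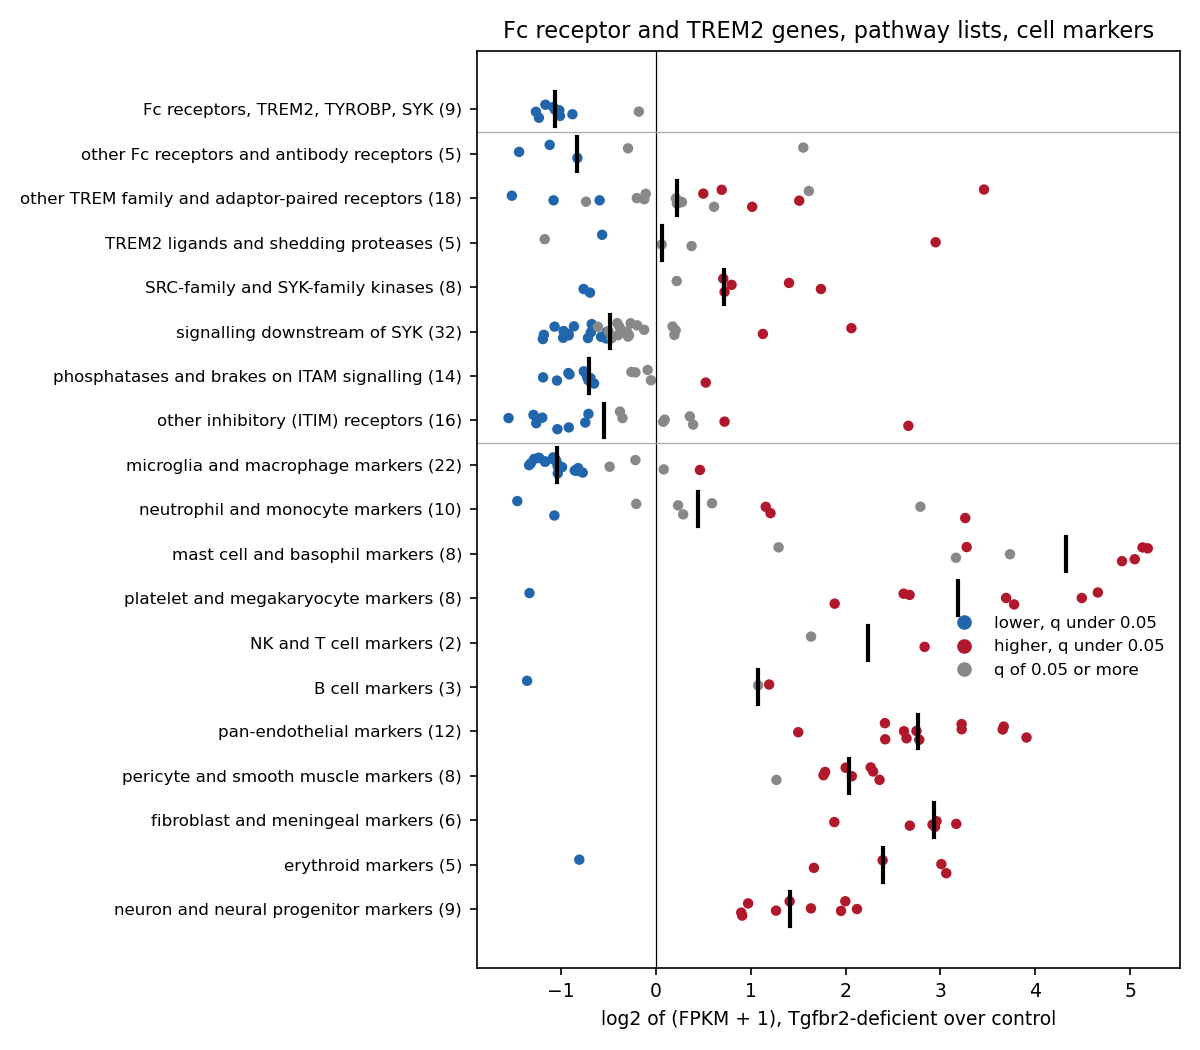
Log2 fold on FPKM + 1 of each tested gene (points) and the median (black bar) for the 9 Fc receptor and TREM2 genes, for 7 pathway lists and for 11 marker lists, with the number of tested genes in brackets and colours for the call at q under 0.05. The 9 genes lie at −1.06 in the median beside −1.04 for the microglia and macrophage markers, while the medians of the other 10 marker lists lie above 0.

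Of the ligands of TREM2 and the proteases that shed it, the most abundant did not pass. Apoe, a lipoprotein that TREM2 binds, stood at 11538 FPKM in controls and 5134 FPKM in the deficient group (q = 0.220 in the authors' deposited table), at a fold close to that of Trem2. Clu, another lipoprotein ligand, rose from 4.76 to 43.5 FPKM. Adam17, a protease that cuts TREM2 from the cell surface, fell from 53.9 to 36.1 FPKM, and Adam10, which does the same, stood at 45.5 and 47.5 FPKM and did not pass. Of 7 genes 5 passed the filter, 1 fell and 1 rose, beside 14.7% lower and 23.9% higher of all tested genes. The median log2 fold was 0.06.

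Among the kinases that act on ITAMs, the most abundant, Lyn, fell and 5 of lower level rose. Lyn, a SRC-family kinase of blood cells, went from 116 to 71.2 FPKM. Src and Yes1, which most cell types use, rose from 4.68 to 14.0 FPKM and from 4.19 to 7.51 FPKM, Lck, the kinase of T cells, from 0.193 to 2.99 FPKM and Zap70, the relative of Syk in T cells, from 0.591 to 1.77 FPKM. Fgr, a kinase of myeloid cells, also rose, from 1.74 to 3.53 FPKM. Of 8 tested kinases 2 fell and 5 rose, beside 14.7% lower and 23.9% higher of all tested genes. The median log2 fold was 0.72, and Fyn, at 39.1 and 45.7 FPKM, did not pass.

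Downstream of SYK, 14 of 32 genes fell, and in some gene families the relatives were called differently. Plcg2, the phospholipase that SYK activates in myeloid and B cells, fell from 52.9 to 32.6 FPKM, and its relative Plcg1 rose from 8.83 to 20.5 FPKM. The PI3-kinase subunits of leukocytes, Pik3cg and Pik3cd, fell from 48.8 to 21.0 FPKM and from 73.1 to 38.2 FPKM, and the widely expressed Pik3ca, at 5.06 and 6.01 FPKM, and Pik3cb, at 4.72 and 5.56 FPKM, did not pass. Rac2, the Rac GTPase of blood cells, fell from 144 to 73.2 FPKM, and the widely expressed Rac1, at 431 and 283 FPKM, did not pass (q = 0.0625 in the authors' deposited table). In the Vav family all the relatives listed fell. Vav1 went from 76.6 to 40.1 FPKM, Vav2 from 20.1 to 13.7 FPKM and Vav3 from 15.6 to 10.1 FPKM. Prkcd fell from 148 to 75.1 FPKM, and its relative Prkcb, at 17.1 and 14.1 FPKM, did not pass. Card9, which links SYK to NF-κB, fell from 14.7 to 5.89 FPKM and the PI3-kinase adaptor Pik3ap1 from 111 to 52.4 FPKM. Lat, an adaptor of T cells, mast cells and platelets, rose from 0.252 to 4.23 FPKM. Of 32 genes, all of which were tested, 14 fell and 2 rose, beside 14.7% lower and 23.9% higher of all tested genes. The list had median levels of 27.0 FPKM in controls and 20.0 FPKM in the deficient group. Of tested genes with a mean of 21.8 to 33.8 FPKM, 24.6% were lower and 7.64% higher. The median log2 fold of the list was −0.48, which becomes 0.06 when folds are centred on ribosomal protein genes. Whether relatives within a family differ in their fold was not tested.

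**Figure D4:**
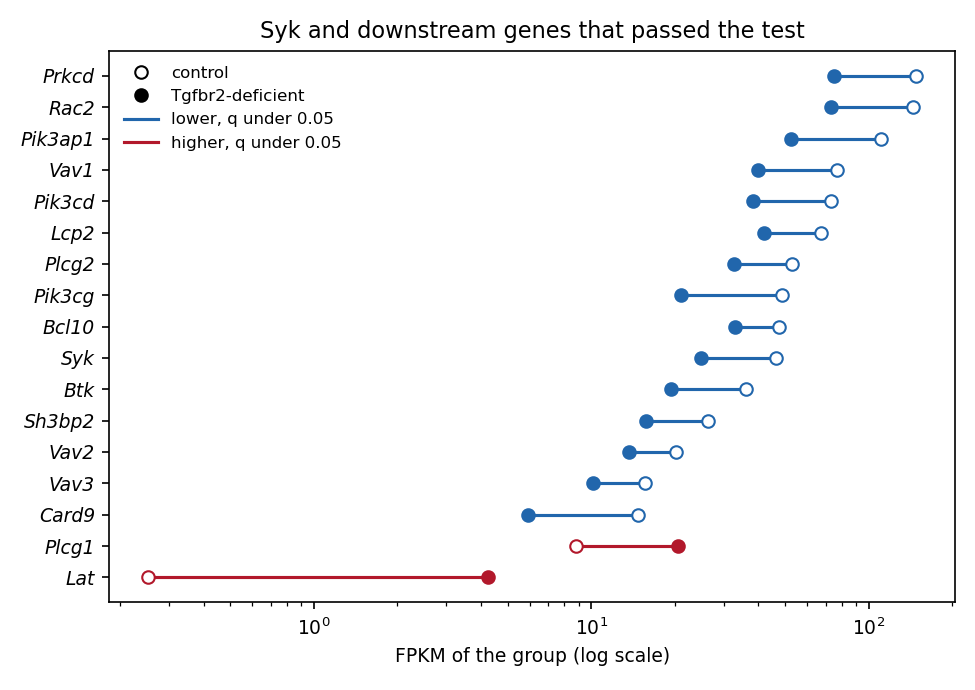
FPKM in the control group (open points) and the Tgfbr2-deficient group (filled points) of Syk and of the genes downstream of it that passed the test, in order of control level on a log axis. The 15 genes above 10 FPKM in the control group fell and the 2 below it rose.

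Most genes on a list of phosphatases and other regulators of ITAM signalling fell. Ptpn6, the phosphatase SHP-1 that ITIM receptors recruit, fell from 274 to 133 FPKM, Inpp5d, the lipid phosphatase SHIP1 that FcγRIIB recruits, from 81.1 to 51.4 FPKM, and Ptprc, which encodes CD45, from 38.9 to 23.2 FPKM. The adaptors Dok2 and Dok3, which damp signalling, fell from 173 to 75.6 FPKM and from 48.4 to 25.1 FPKM, and the receptor phosphatase gene Ptprj from 32.1 to 16.7 FPKM. Of 14 genes 9 fell and 1, the ubiquitin ligase gene Cblb, rose, beside 14.7% lower and 23.9% higher of all tested genes. The list had median levels of 32.6 FPKM in controls and 19.7 FPKM in the deficient group. Of tested genes with a mean of 21.8 to 33.8 FPKM, 24.6% were lower and 7.64% higher. The median log2 fold of the list was −0.70. Ptpn11, the relative of Ptpn6 that most cells express, stood at 12.1 and 11.6 FPKM and did not pass. Inppl1, the relative of Inpp5d, did fall, from 33.1 to 19.9 FPKM, and so did the kinase gene Csk, from 58.5 to 34.2 FPKM.

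Of the other ITIM receptors, 8 fell. Clec12a, a myeloid lectin, went from 19.5 to 6.0 FPKM, the lectins Clec4a2 and Clec4a3 from 35.0 to 13.7 FPKM and from 79.6 to 32.7 FPKM, Siglece, a relative of Cd33, from 25.4 to 10.5 FPKM and Sirpa, the receptor for the CD47 signal, from 564 to 275 FPKM. Pecam1, an ITIM protein of endothelium and platelets, rose from 4.81 to 35.8 FPKM. Of 18 genes 16 passed the filter, 8 fell and 2 rose, beside 14.7% lower and 23.9% higher of all tested genes. The median log2 fold was −0.54, and the other that rose was Siglec5, at 0.724 and 1.85 FPKM.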

How the data were processed

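Per the labels' protocols, cDNA was made from sorted cells with the SMART-Seq v4 kit and libraries with Nextera XT, and these kits do not mark strand. The submitters' processing notes name build mm10 with TopHat2, Cufflinks 2.2.1 and Cuffdiff. Annotation, normalization, handling of reads that fit several genes and test settings are not stated there. The authors' deposited table holds 1 FPKM per group and gene, per the file headers, with 0 columns of values per library, so depth is unknown and no interval could be set. The deposited log2 fold has no pseudocount, and each p-value and q-value comes from Cuffdiff as the authors ran it. The deposited test statistic, a score, was not used.

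Of 23358 entries 14043 were tested by the authors, and 13356 at 1 FPKM or more in a group were kept. Folds of lists are log2 of FPKM + 1, which understates changes at low levels. Gene starts in the table count from 0 and were raised by 1, after which 10541 of 21460 equalled RefSeq's start, against 673 as deposited. Of 237 list symbols 235 matched, 4 through synonyms. Shown by rule were the 9 genes, from each pathway list up to 4 called genes of smallest p or the 2 most abundant, and from each marker list the 2 most abundant; further names were chosen after their values were seen. A few genes covered by the rule or by a count are not reported here. The promoter windows and motifs were chosen after the promoter sequences had been seen, and a search for a composite ETS-IRF element is not reported. The 9 genes, the lists and the tests were chosen with earlier results of these data known. The calls and the Benjamini-Hochberg adjustment were tested on simulated data. Python 3.11.15, pandas 2.3.3 and numpy 2.4.6 were used. Alternatives were other filters, thresholds, adjustments, pseudocounts and centrings.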

Additional observations from a re-analysis of the deposited data

How the results depend on the processing

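The count of 8 genes lower and 0 higher among the 9 was 8 under 5 of the 6 alternatives and 7 when a fold of at least 2 was also required. The median log2 fold of the 9 genes, −1.06, became −0.52 when folds were centred on ribosomal protein genes and −0.0240 when centred on the macrophage markers. Under the second centring Fcgr3 reversed to 0.0223, Cd33 to 0.0295 and Syk to 0.16. Fcgr4, which had not passed at −0.18, changed sign to 0.36 under the first and 0.86 under the second. The same centring reversed the medians of the other Fc receptors to 0.21, of the genes downstream of SYK to 0.56, of the phosphatases to 0.34 and of the other ITIM receptors to 0.50, and moved those of the TREM family and adaptor-paired receptors to 1.27, of the TREM2 ligands and proteases to 1.10 and of the kinases to 1.76. Centring on ribosomal protein genes reversed the median downstream of SYK to 0.0602 and moved the other Fc receptors to −0.28, the TREM family and adaptor-paired receptors to 0.77, the phosphatases to −0.16, the other ITIM receptors from −0.54 to −0.0023, the TREM2 ligands and proteases from 0.06 to 0.60 and the kinases from 0.72 to 1.26. These shifts come from the centring itself, which adds 1.04 or 0.54 to every log2 fold. With a fold of at least 2 in addition, genes lower fell to 368 over all genes, 3 downstream of SYK, 2 phosphatases, 0 kinases and 0 TREM2 ligands and proteases, and higher to 3 of the TREM family and adaptor-paired list and 0 phosphatases. At q under 0.01, genes lower numbered 1026 over all genes, 1 kinase and 0 TREM2 ligands and proteases, and genes higher 3 of the TREM family and adaptor-paired list and 0 phosphatases. At a minimum of 5 FPKM, genes higher numbered 1643 over all genes, 3 of the TREM family and adaptor-paired list, 2 kinases, 1 downstream of SYK and 1 ITIM receptor. The other alternatives kept every count within 1.5 times. No paired analysis was possible because the table holds 1 value per group, and for the same reason no library could be left out.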
